A study of Mus musculus with 4 samples.

Results

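The mouse genes named Zfp with a number from Zfp100 to Zfp699 were followed in IMS32 cells, an immortalized line of adult mouse Schwann cells, the glia that wrap the axons of peripheral nerves. The cells were held for 1 h in DMEM with 5% FBS and received 5 or 15 mM glucose, with 1 mM pyruvate or none, which gave a group [Glc 5 mM/Pyr (+)], its counterpart without pyruvate [Glc 5 mM/Pyr (−)], and at raised glucose [Glc 15 mM/Pyr (+)] beside its own counterpart [Glc 15 mM/Pyr (−)]. Where 4 values of a gene are given in a row, they follow this order. Total RNA of each group was hybridized to 1 Agilent 1-colour mouse array, so there were 4 arrays, 1 per condition, and no replicates. The question put to the data was how these genes differed when pyruvate was left out at normal or raised glucose. A name counted as a member when it was Zfp followed by such a number and nothing else, and when at least 1 of its probes was well above background on all 4 arrays. Of 187 such names on the array, with 285 probes, 176 were measured in this way through 258 probes, among 21708 gene names measured in all. The other 11 names, Zfp109, Zfp264, Zfp286, Zfp300, Zfp474, Zfp541, Zfp575, Zfp599, Zfp612, Zfp616 and Zfp641, had no probe well above background on more than 2 arrays and are not described further.

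Most Zfp genes encode proteins with runs of C2H2 zinc fingers, small folds in which a pair of cysteines and a pair of histidines hold a zinc ion so that the finger can touch a few bases of DNA. Many also carry a KRAB domain at the N terminus, which recruits the corepressor Trim28 and through it histone methylation by Setdb1, and these KRAB proteins are best known for silencing transposable elements. The number in the name says nothing about function. Some members are not DNA-binding repressors at all but work on RNA, ribosomes or the mitotic spindle, and others are regulators of Schwann cell or oligodendrocyte differentiation.

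Some of the probes lie in the family's common sequence. Each probe has 60 bases, and its positions are those of the array files in the mouse build mm9. The probes below were read from those files and are written 5′ to 3′, with capitals on the codons of the linker that joins one finger to the next and of those cysteines or histidines that met the full spacing searched for, so that other cysteine and histidine codons of the fingers stay in lower case. The first 3 belong to genes past 1.5-fold in at least 1 comparison.
Zfp384, chr6:124980965-124981024, plus strand: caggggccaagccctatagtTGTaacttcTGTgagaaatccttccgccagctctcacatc
Zfp143, chr7:117225341-117225400, plus strand: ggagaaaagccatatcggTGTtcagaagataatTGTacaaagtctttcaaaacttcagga
Zfp389, chr13:21596428-21596487, minus strand: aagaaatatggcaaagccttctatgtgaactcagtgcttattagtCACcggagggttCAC
The other 5 are the probes of members that hold the whole linker, shown for how alike it is from gene to gene.
Zfp345, chr2:150018262-150018321, plus strand: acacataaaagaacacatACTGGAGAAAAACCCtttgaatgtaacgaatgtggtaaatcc
Zfp386, chr12:117298639-117298698, plus strand: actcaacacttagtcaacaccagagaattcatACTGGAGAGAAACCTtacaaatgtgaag
Zfp442, chr2:150234210-150234269, minus strand: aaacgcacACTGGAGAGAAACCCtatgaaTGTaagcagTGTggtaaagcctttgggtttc
Zfp619, chr7:46793286-46793345, plus strand: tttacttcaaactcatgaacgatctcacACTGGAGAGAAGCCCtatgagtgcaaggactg
Zfp689, chr7:134587980-134588039, minus strand: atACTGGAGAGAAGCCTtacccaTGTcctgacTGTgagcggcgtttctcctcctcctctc
A finger signature was counted in a probe when a reading frame without a stop held 1 of 3 forms. These were the linker, a pair of cysteines at a finger's spacing with an aromatic residue at its usual place after them, or an aromatic residue and a leucine at their usual places ahead of the first histidine. A signature was found in 32 of the 258 measured member probes, which belonged to 30 genes. Over all members' probes the share was 12.6%, and over all 39429 mouse probes it was 1.46%. These forms were chosen after the values of the probes were seen and were the third set tried, the first having been the linker alone, which 28 probes of the array and 5 measured member probes held. The signal of the member probes with a signature had a median of 17.2% of their array's 75th percentile, against 36.6% for those without. On leaving out pyruvate at 15 mM glucose, 2 of the 30 genes with such a probe passed 1.5-fold, or 6.67%. Of the 146 genes without, 3 did, or 2.05%, and of all genes 6.51% did. Whether these probes also bound RNA of other zinc finger genes was not tested.

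All values are log2 signals relative to the 75th percentile of their own array, averaged over the probes of a gene, and a level is given as a percentage of that percentile. Spots of 1 probe printed 10 times on an array had a median SD of 0.0692 to 0.0748 log2, so that a difference between 2 arrays carries a spot error of about 0.106 log2. This error covers the array surface and not the cells. No test across genes was possible on a difference between 2 single arrays, and the array cannot be told apart from the condition. All 12 Schwann cell markers were well above background on every array, Sox10 among them at 303 to 331% of the 75th percentile and Ngfr at 928 to 1037%. Of the other lists, 4 of 6 fibroblast, 5 of 6 macrophage, 2 of 5 endothelial and 4 of 6 neuron markers were measured on all 4 arrays, Col1a2 the fibroblast gene among them at 5144 to 5457%, and their part in the results was not tested. In RNA of a whole culture, a change in the mix of cells and a change in RNA per cell cannot be told apart.

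The median difference of the 176 members on leaving out pyruvate was 0.017 log2 at 5 mM glucose, against −0.019 over all genes, and 0.012 log2 at 15 mM glucose, against 0.033 over all genes. Raising glucose from 5 to 15 mM gave a median of −0.011 log2 with pyruvate, against −0.022 over all genes, and of −0.028 log2 without pyruvate, against 0.033 over all genes. At 5 mM glucose 102 of the 176 members, or 58.0%, lay above 0 without pyruvate, against 43.7% of all genes. At 15 mM glucose 91 members, or 51.7%, did, against 57.0% of all genes.

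At 5 mM glucose 1 member was higher by 1.5-fold without pyruvate, where 1.14% of all genes were, and 2 members were lower by 1.5-fold, where 1.41% of all genes were. At 15 mM glucose 3 members were higher, against 2.98% of all genes, and 2 were lower, against 3.54% of all genes. With pyruvate, raising glucose left 0 members higher, against 0.954% of all genes, and 1 lower, against 1.87%. Without pyruvate, 1 member was higher at 15 mM than at 5 mM glucose, against 2.47% of all genes, and 2 were lower, against 4.42%. A 2-fold difference was reached by 1 member in 1 comparison, Zfp420 on leaving out pyruvate at 15 mM glucose, where 2.01% of all genes passed 2-fold. The shares past 2-fold in the other comparisons, in which 0 members passed, were 0.806% for pyruvate at 5 mM glucose, 0.788% for raised glucose when pyruvate was present and 2.2% when it was not. In all, 7 of 176 members, or 3.98%, passed 1.5-fold in at least 1 comparison, and 11.0% of all genes did.

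The shares were also set against other genes of like signal. When the genes that are not members were weighted to the members' spread over 10 bands of signal, the share of them past 1.5-fold in either direction was 1.40% for pyruvate at 5 mM glucose, where the members' share was 1.70%. For pyruvate at 15 mM glucose the weighted share was 5.55% against 2.84% of members. For glucose it was 1.61% against 0.568% with pyruvate, and 5.99% against 1.70% without. The members' interquartile range was 0.140 log2 at 5 mM glucose and 0.269 log2 at 15 mM glucose on leaving out pyruvate, and that of the weighted genes was 0.167 and 0.258. The members' share was below the weighted share in 3 of the 4 comparisons and above it in the first, and with 1 array per condition no test was made of these gaps. The weighting did not match the number of probes. Of the 176 members 70 had more than 1 measured probe, and of 21708 genes 4791 did. Among these 4791, 2.48% passed 1.5-fold for pyruvate at 15 mM glucose.

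**Figure D1:**
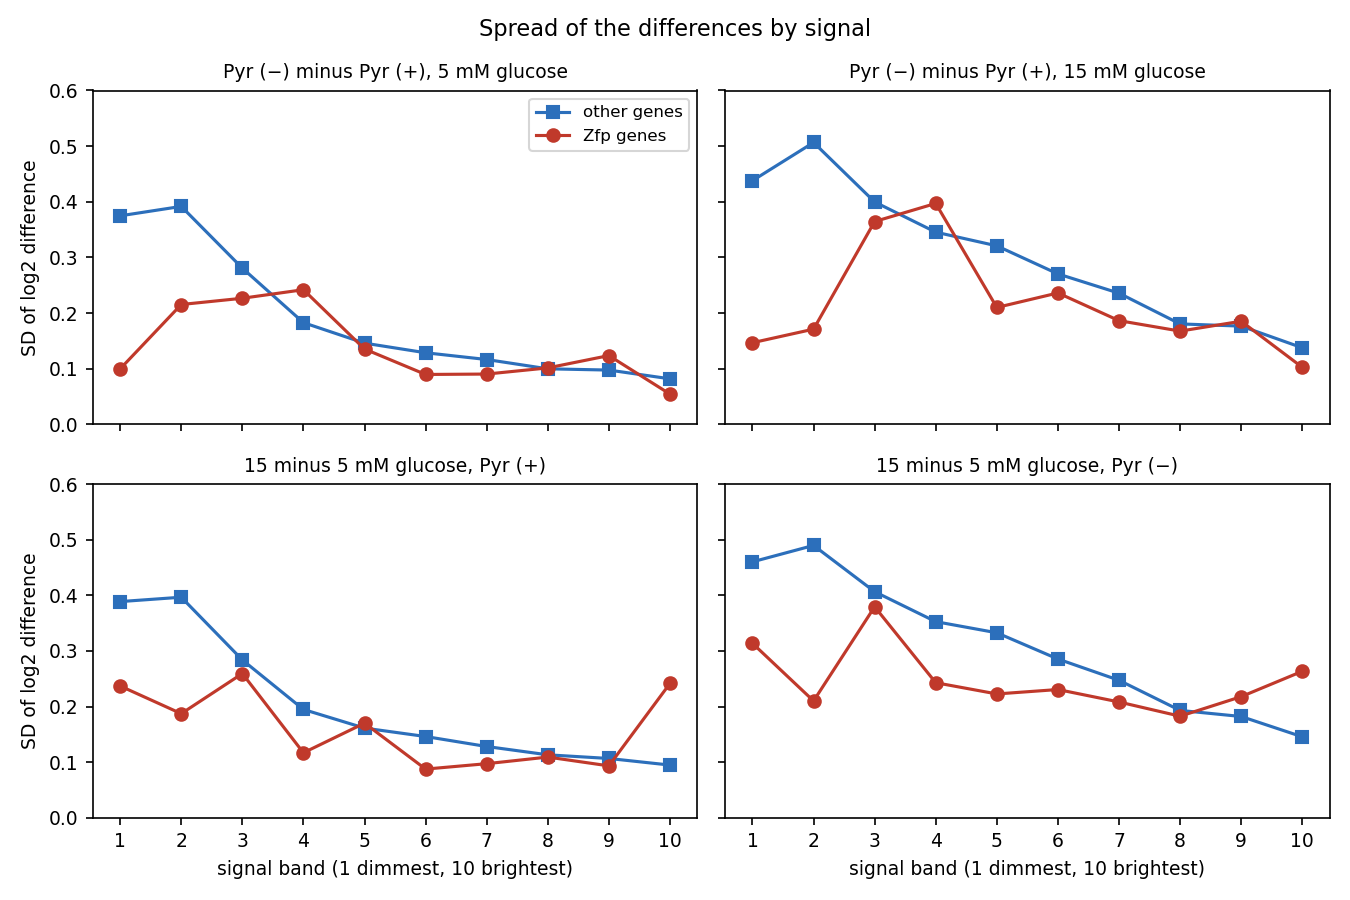
SD of the log2 differences of the Zfp genes (red circles, 3 to 31 genes a band) and of all other genes (blue squares) in 10 bands of signal, from the dimmest genes to the brightest, for the 4 comparisons. Among other genes the SD is largest in the 3 dimmest bands and smallest in band 10, and the bands with fewest Zfp genes, 1 and 10, hold 3 and 4 of them.

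Across the members, the differences at 5 and at 15 mM glucose, which share no array, were set side by side. Pearson's r was 0.23 and Spearman's rho 0.098 over the 176 members, which share the array design and the scaling, and r was 0.11 without Zfp420. Over all genes r was 0.063 and rho 0.041. Without Zfp420, Zfp384 and Zfp618 r was 0.075 over 173 members. Without the 3 dimmest of the 10 bands r was 0.34 over 146 members and 0.11 over all genes, and rho was 0.144 and 0.064. Zfp420 and Zfp384, both in band 4, were among these 146. Of the members, 56 were higher without pyruvate at both glucose concentrations and 39 were lower at both. A further 46 were higher at 5 mM and lower at 15 mM glucose, and 35 the other way round. The direction was the same at both in 54.0% of members and in 50.3% of all genes.

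**Figure D2:**
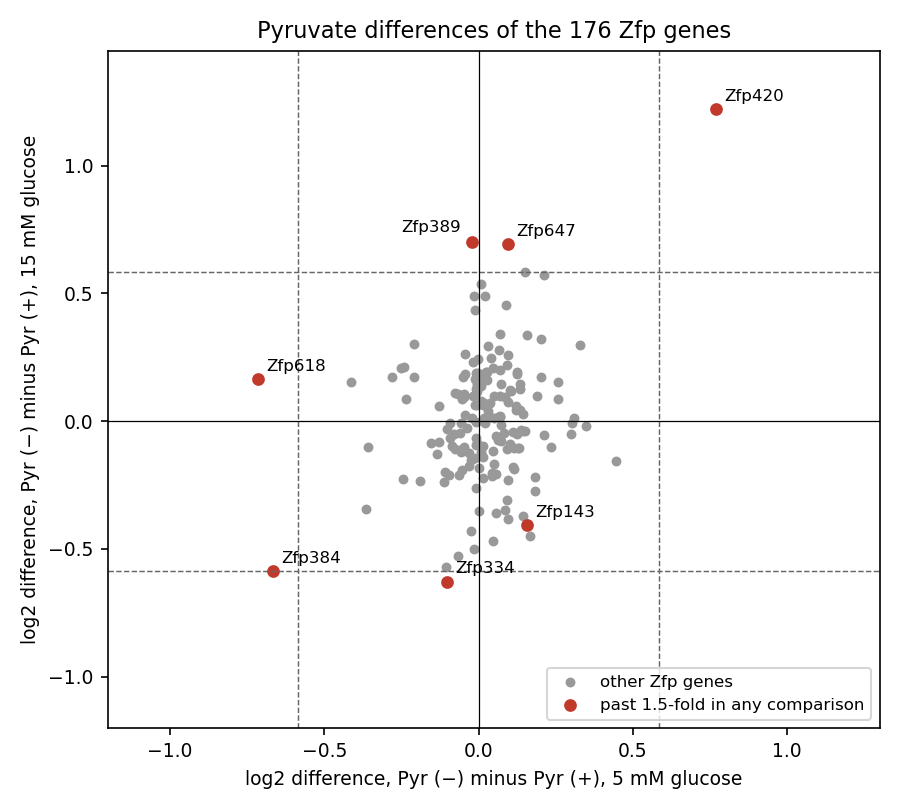
Each point is 1 of the 176 Zfp genes, with its log2 difference between the arrays without and with pyruvate at 5 mM glucose (horizontal) and at 15 mM glucose (vertical). Dashed lines mark 1.5-fold, red points the 7 genes past it in any of the 4 comparisons, and Zfp420 stands alone at the upper right at 0.77 and 1.22.

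The 7 members past 1.5-fold were Zfp143, Zfp334, Zfp384, Zfp389, Zfp420, Zfp618 and Zfp647. All but Zfp647 owed the difference to a probe at 8.09% or less of the 75th percentile on every array. On leaving out pyruvate at 15 mM glucose, the members that passed 1.5-fold by least were Zfp384 at −0.59 log2 and Zfp647 at 0.69. The nearest that did not pass it were Zfp606 at −0.57 and Zfp319 at 0.58.

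Zfp420, whose human counterpart is known as a KRAB repressor of p53-dependent genes, had the largest pyruvate differences among the members. Its level was 4.87 and 8.30% of the 75th percentile at 5 mM glucose with and without pyruvate, and 4.25 and 9.90% at 15 mM glucose. Both arrays without pyruvate were above both with it. The differences of Zfp420 were 0.77 log2 at 5 mM and 1.22 log2 at 15 mM glucose. Its 2 probes did not give the same size. The dimmer one, at chr7:30645015-30645074, gave 1.46 and 2.06 log2, and the brighter one, at chr7:30661170-30661229, gave 0.075 and 0.38 log2. Neither difference of Zfp420 passed 1.5-fold with the brightest probe or with normexp background correction, which models the background in place of the scanner software's correction, and that at 5 mM glucose did not with spike-in scaling, which sets each array by its added control RNAs.

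Zfp384, a nuclear matrix regulator of extracellular matrix genes, was the member lowest without pyruvate at both glucose concentrations by the mean of its 2 differences. Its 1 probe, the finger probe printed above, read 8.09 and 5.09% of the 75th percentile at 5 mM glucose with and without pyruvate, and 7.92 and 5.28% at 15 mM glucose. Both arrays without pyruvate lay below both with it, by −0.67 and −0.59 log2, and glucose made a difference of −0.030 and 0.052 log2. With normexp background correction the pyruvate differences of Zfp384 were −0.38 and −0.40 log2, inside 1.5-fold.

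Zfp647 was the one brighter gene among the 7. Its single probe on chromosome 15 read 37.1 and 39.7% at 5 mM glucose with and without pyruvate, and 33.9 and 54.8% at 15 mM glucose. The last array stood above the other 3. The pyruvate difference was 0.095 log2 at 5 mM and 0.69 log2 at 15 mM glucose, and the latter kept past 1.5-fold under each of the 11 other settings in which it could be measured.

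Zfp389, which RefSeq lists as a transcribed pseudogene, read 3.71, 3.65 and 4.20% on the first 3 arrays and 6.83% in [Glc 15 mM/Pyr (−)]. That array alone was high, by 0.70 log2 over [Glc 15 mM/Pyr (+)] and by 0.90 log2 over [Glc 5 mM/Pyr (−)]. Zfp334 went the other way, at 3.94, 3.67 and 3.52% on the first 3 arrays and 2.28% in [Glc 15 mM/Pyr (−)], which gave −0.63 log2 for pyruvate and −0.69 log2 for glucose. Both genes lay inside 1.5-fold in these comparisons with normexp background correction.

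Zfp143 is an activator that binds the promoters of many housekeeping and small nuclear RNA genes. Averaged over its 2 probes it read 16.0, 17.9, 15.0 and 11.3% in the 4 groups, and it was lower by −0.66 log2 at 15 than at 5 mM glucose without pyruvate. The 2 probes did not go the same way. The dimmer one, printed above, gave −1.40 log2 in that comparison, and the brighter one, at chr7:117238189-117238248, gave 0.079 log2, so that the direction for the gene rested on the dim probe. With normexp background correction Zfp143 gave −0.32 log2. Zfp618, which is known to bind hydroxymethylated DNA with Uhrf2, stood high on 1 array, at 7.59% in [Glc 5 mM/Pyr (+)] against 4.62, 3.90 and 4.37% on the others. Its differences past 1.5-fold, −0.72 log2 for pyruvate at 5 mM glucose and −0.96 log2 for glucose with pyruvate, both had that array as the reference. Both lay inside 1.5-fold with normexp background correction, with no filter on dim probes and with that filter met on any 1 array.

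**Figure D3:**
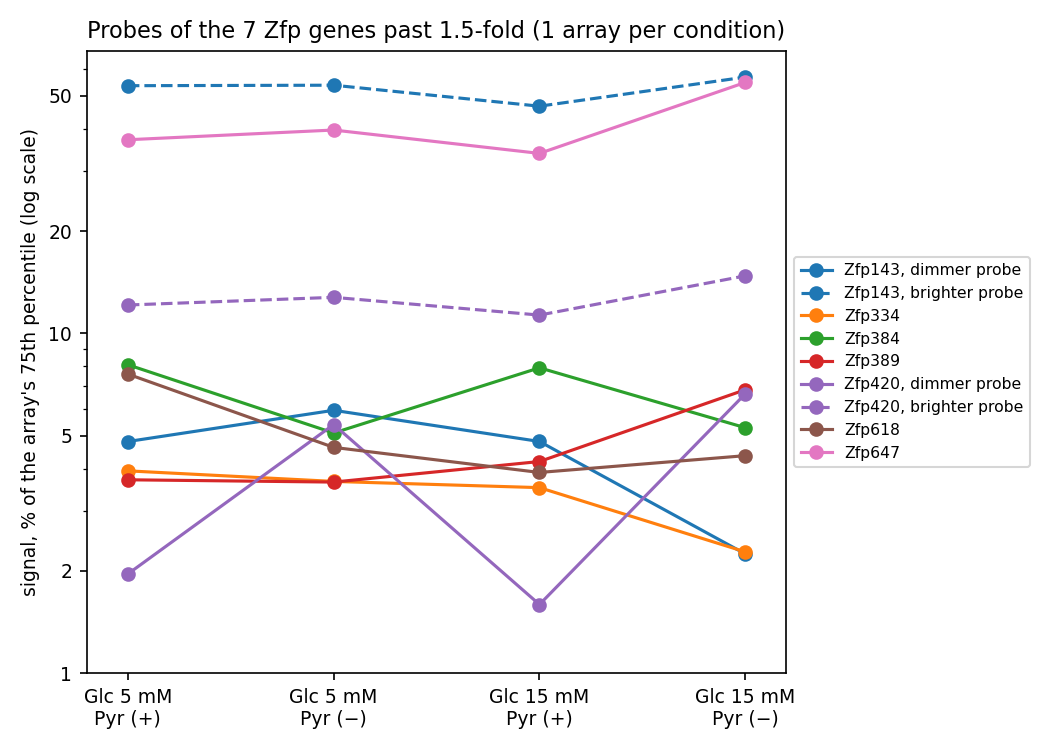
Signal of each measured probe of the 7 genes past 1.5-fold on the 4 arrays, as a percentage of the array's 75th percentile on a log axis, with 1 array per condition and no error bars. On leaving out pyruvate at 15 mM glucose the brighter probes of Zfp143 and Zfp420 (dashed) differ by 0.28 and 0.38 log2 and their dimmer probes (solid) by −1.10 and 2.06 log2, and Zfp647 is highest on the last array.

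Over the 70 members with more than 1 measured probe, the probes of a gene differed by a median of 0.149 log2 in the pyruvate difference at 5 mM glucose and 0.129 log2 at 15 mM glucose. They differed by 1.5-fold or more in 3 genes at 5 mM and in 6 genes at 15 mM glucose, with Zfp420 the widest in both at 1.39 and 1.68 log2. The other 106 members had 1 probe.

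Gene length went with the difference on 1 array. RefSeq gives a gene length in the assembly GRCm38.p6 for all 176 members, 174 by symbol and Zfp191 and Zfp607 by an older name. The members were split into 3 groups by length, with 59 short genes of 2.21 to 13.2 kb, 58 in the middle and 59 long genes of 25.8 to 456 kb. Other genes were split at the same cuts, 13.3 and 25.6 kb, with no lower or upper limit on length. Gene length was taken up after the differences had been seen.

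On leaving out pyruvate at 15 mM glucose, the short members had a median difference of 0.119 log2 and the long members one of −0.120 log2. Of the 59 short genes 44, or 74.6%, lay above 0, against 71.0% of other short genes, and of the 59 long genes 43, or 72.9%, lay below, against 58.2% of other long genes. At 5 mM glucose the same groups had medians of 0.021 and 0.015 log2, with 35 and 33 genes above 0. Over the 176 members Spearman's rho between gene length and the difference was −0.43 at 15 mM and −0.086 at 5 mM glucose. For glucose it was −0.45 without pyruvate, a comparison with the same [Glc 15 mM/Pyr (−)] array in it, and −0.18 with pyruvate. These are descriptions across genes, which are not independent replicates.

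Other genes showed the same order. Of 21532 gene names that are not members, 16370, or 76.0%, had a RefSeq length, so their values stand for that part only. Over these rho was −0.31 at 15 mM and 0.011 at 5 mM glucose. With the members' cuts, their medians at 15 mM glucose were 0.091 log2 for 6334 short genes and −0.036 log2 for 6831 long genes. The long members also read dimmer, at a median of 19.5% of the 75th percentile against 71.3% for the short ones. The part of signal was not tested. Among members in the 5 dimmer bands the medians were 0.168 log2 for 19 short and −0.145 log2 for 32 long genes, and in the 5 brighter bands they were 0.112 log2 for 40 short and −0.097 log2 for 27 long genes. With 1 array in this condition, an effect of the medium and a property of that RNA or array cannot be told apart.

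**Figure D4:**
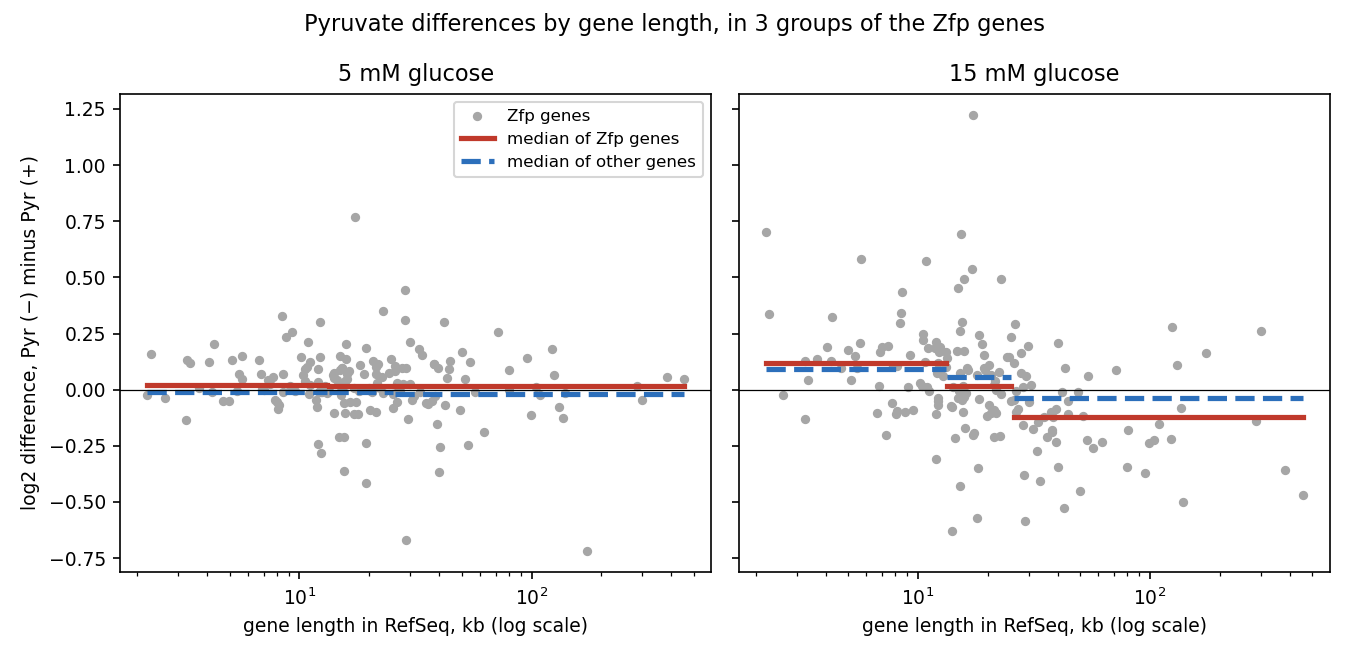
Log2 differences between the arrays without and with pyruvate against gene length in RefSeq (log axis, kb) at 5 mM glucose (left) and 15 mM glucose (right). Points are the 176 Zfp genes and red lines their medians in 3 groups by length. Blue dashed lines are the medians of other genes split at the same cuts. They are drawn over the Zfp genes' ranges, but the other genes had no lower or upper limit on length. At 15 mM glucose the red line steps down from 0.119 to −0.120, and at 5 mM it stays level.

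Of the 12 measured members known from development or differentiation, 10 were below 0 on leaving out pyruvate at 15 mM glucose, where 43.0% of all genes were. At 5 mM glucose 3 were below 0, where 56.3% of all genes were. The medians were −0.182 and 0.047 log2 beside those of all genes given above. In any comparison 0 passed 1.5-fold, where 11.0% of all genes did in at least 1. Of the 12, 9 were long genes. Zfp536, a repressor of neuronal differentiation and the longest member at 456 kb, read 728, 753 and 718% of the 75th percentile on the first 3 arrays and 518% in [Glc 15 mM/Pyr (−)], a difference of −0.47 log2 at 15 mM glucose. Zfp462, needed for the pluripotent state, read 40.1, 39.7 and 39.8% and then 28.1%, or −0.50 log2. Zfp292 gave −0.35 log2, Zfp516, a regulator of brown fat, −0.37 log2, and Zfp608 −0.22 log2.
Zfp609, which works with the cohesin loader in neural progenitors, gave −0.082 log2, or 0.107 log2 by its brightest probe, and Zfp521, a regulator of neural and blood cell fate, −0.139 log2. Zfp335, a regulator of neural progenitors, gave −0.104 log2 and Zfp568, a KRAB repressor of placental Igf2, −0.050 log2. Zfp488, a partner of Olig2 in oligodendrocytes, gave −0.31 log2. The 2 above 0 were Zfp423, a regulator of fat and cerebellar development, at 0.26 log2 and Zfp503 of the striatum at 0.21 log2. Long members without this list still had a median of −0.112 log2 over 50 genes.

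Among the 9 measured promoter-binding regulators, 7 were above 0 at 5 mM glucose without pyruvate, where 43.7% of all genes and 58.0% of members were. At 15 mM glucose 6 were below 0, where 43.0% of all genes and 48.3% of members were. The medians were 0.071 and −0.104 log2. Zfp384 was the 1 past 1.5-fold in both, or 11.1% of the 9, where 2.56% of all genes passed at 5 mM and 6.51% at 15 mM glucose. For glucose without pyruvate Zfp143 was the 1 past it, at −0.66 log2, where 6.89% of all genes passed. Zfp523, a close relative of Zfp143, read 111, 119 and 112% on the first 3 arrays and 85.6% in [Glc 15 mM/Pyr (−)], a pyruvate difference of −0.38 log2, but its brightest probe alone gave 0.064 log2. Zfp148, which binds GC-rich promoters, gave 0.18 log2 at 5 mM and −0.22 log2 at 15 mM glucose, and Zfp263 gave 0.131 and −0.104 log2. Zfp281 of pluripotent cells, Zfp410, the activator of Chd4, Zfp260 and Zfp219 lay between −0.0074 and 0.162 log2 in both comparisons.

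The 7 members that act on RNA, ribosomes or the spindle had medians of −0.0085 log2 at 5 mM and 0.012 log2 at 15 mM glucose. In any comparison 0 of them passed 1.5-fold, where 11.0% of all genes did in at least 1. Zfp622, which helps mature the large ribosomal subunit, read 2826, 2926, 3270 and 3297% in the 4 groups, with both 15 mM arrays above both 5 mM arrays by 0.21 and 0.17 log2, but by −0.140 and −0.026 log2 with spike-in scaling. Zfp598, the ubiquitin ligase that marks collided ribosomes, read 171, 170, 157 and 176%. Zfp207, a spindle protein that binds Bub3, read 56.4, 53.3, 51.0 and 49.2%. Zfp106, an RNA-binding protein of motor neurons and muscle, was lowest on the last array at 150%, against 192, 191 and 180%. Zfp326 of the splicing-coupled DBIRD complex, the nucleolar Zfp330 and the double-stranded RNA binder Zfp346 gave −0.087, 0.219 and 0.192 log2 on leaving out pyruvate at 15 mM glucose.

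The 5 members of chromatin or repressor complexes had medians of 0.048 and −0.116 log2. In any comparison 0 of them passed 1.5-fold, where 11.0% of all genes did in at least 1. At 15 mM glucose Zfp687 and Zfp592, partners in a complex with Zmynd8, gave −0.21 and −0.116 log2 and Zfp644, a partner of the methyltransferases Ehmt1 and Ehmt2, gave −0.18 log2. Zfp217, a partner of CoREST, and Zfp451, a SUMO ligase, gave 0.098 and 0.060 log2.
Of the 4 members tied to the p75 neurotrophin receptor or to myelinating glia, 0 passed 1.5-fold in any comparison. Of all genes 11.0% did in at least 1. Zfp110 and Zfp369 bind the p75 receptor, the product of Ngfr. Zfp110 read 40.7, 46.8, 41.3 and 46.5% in the 4 groups, with both arrays without pyruvate higher by 0.20 and 0.174 log2. Spike-in scaling moved the pyruvate differences at 5 mM glucose by −0.188 log2, nearly all of that 0.20. Zfp369 read 6.34, 6.31, 6.77 and 6.39%. Zfp191, required for myelination in the brain and now named Zfp24, read 159, 174, 161 and 183%, again with both arrays without pyruvate higher, by 0.124 and 0.186 log2, the former turning to −0.065 log2 with spike-in scaling. Zfp488 read 84.0, 89.5, 85.4 and 69.0%.

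The proteins through which KRAB members silence their targets were listed as KRAB corepressor partners. All 36 genes of that list were measured. Of these, 0 passed 1.5-fold in any of the 4 comparisons, where 11.0% of all genes did in at least 1. The list was not set against genes of like signal, and bright genes passed less often. For pyruvate at 15 mM glucose, 13.7% of the genes that are not members passed in band 1 and 0.554% in band 10. The pyruvate differences of the list ran from −0.162 to 0.272 log2 at 5 mM and from −0.367 to 0.172 log2 at 15 mM glucose, with medians of 0.0085 and −0.031 log2. Trim28 read 1073, 1042, 973 and 1095% of the 75th percentile and Setdb1 86.3, 77.8, 78.4 and 76.0%. Trim28 gave −0.043 and 0.172 log2 on leaving out pyruvate at 5 and 15 mM glucose, and Setdb1 gave −0.149 and −0.044 log2.

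**Figure D5:**
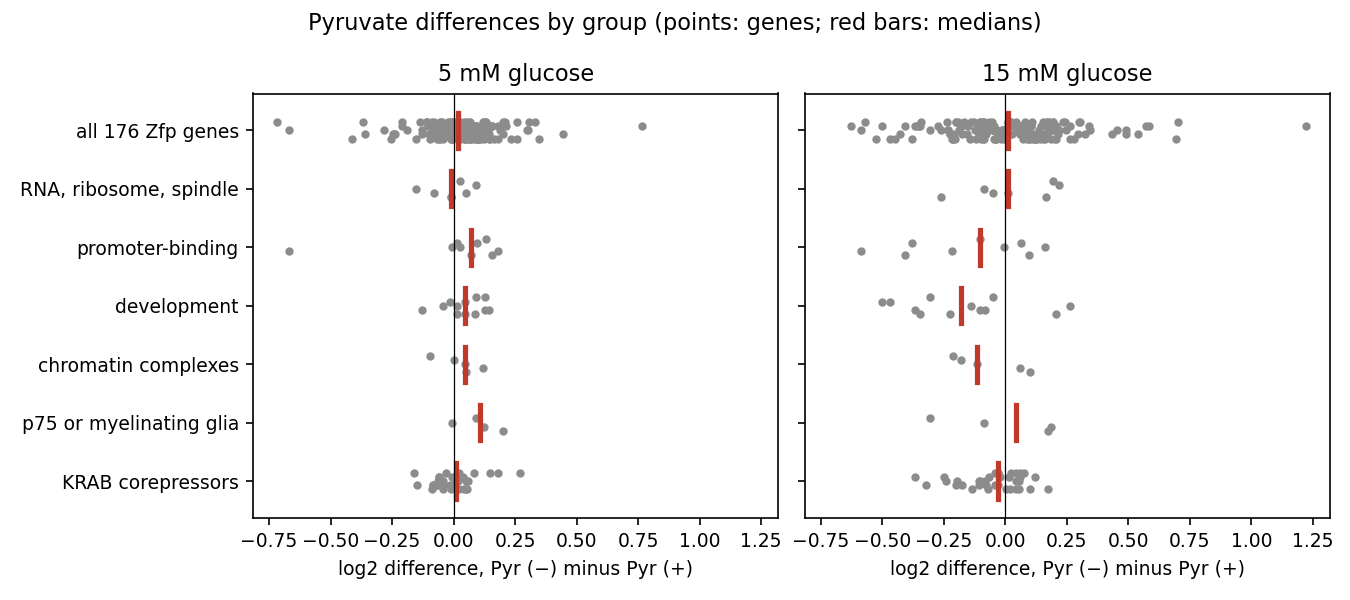
Log2 differences between the arrays without and with pyruvate at 5 mM glucose (left) and 15 mM glucose (right) for all 176 Zfp genes, for the groups of members by known role and for 36 KRAB corepressor partners. Each point is a gene and each red bar a median, which for the development group is 0.047 on the left and −0.182 on the right.

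By the mean of both pyruvate differences, the 5 highest members were Zfp420, Zfp647, Zfp235, Zfp319 and Zfp389, at 0.99, 0.39, 0.39, 0.37 and 0.34 log2. Zfp235 was above 0 at both glucose concentrations, at 0.21 and 0.57 log2, and so was Zfp319, at 0.149 and 0.58 log2, the latter 0.053 log2 by its brightest probe. The 5 lowest were Zfp384, Zfp334, Zfp560, Zfp606 and Zfp607, at −0.63, −0.37, −0.36, −0.34 and −0.30 log2. Zfp560 was lower by about the same at both, by −0.37 and −0.34 log2, while Zfp606 and Zfp607 gave −0.107 and −0.067 log2 at 5 mM and −0.57 and −0.53 log2 at 15 mM glucose. The pyruvate difference at 15 mM exceeded that at 5 mM glucose most in Zfp618, Zfp389, Zfp647, Zfp449 and Zfp473, by 0.88, 0.72, 0.60, 0.57 and 0.53 log2. It lay furthest below it in Zfp697, Zfp248, Zfp143, Zfp334 and Zfp536, by −0.62, −0.60, −0.56, −0.52 and −0.52 log2.

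The additive fit in limma, with pyruvate and glucose as terms over all 21708 genes and 1 residual degree of freedom, called 0 members for pyruvate and 0 for glucose at an adjusted p under 0.05, and 0% of all genes in either. At an unadjusted p under 0.05 it listed 5 members for pyruvate, 2.84% of them, against 3.75% of all genes, and 3 members for glucose, 1.70% of them, against 5.89% of all genes. The 5 for pyruvate were Zfp384, Zfp420, Zfp560, Zfp324 and Zfp235 and the 3 for glucose Zfp558, Zfp366 and Zfp663. The lowest adjusted p of a member in limma was 0.999 for pyruvate and 0.729 for glucose. This fit takes any dependence of the pyruvate difference on glucose as error.

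Many Zfp genes lie side by side in the genome, so the members were also grouped by position. Chromosome 7 held 47 of the members, and on leaving out pyruvate their medians were 0.048 log2 at 5 mM and 0.018 log2 at 15 mM glucose. Taking runs of at least 5 members with neighbours under 1 Mb apart in mm9, 39 members lay in 6 clusters. The cluster at chr7:30645015-30946346 held Zfp420, Zfp383, Zfp568, Zfp566, Zfp260, Zfp382 and Zfp146, with a median of 0.152 log2 at 15 mM glucose, and 1 of these 7, Zfp420, passed 1.5-fold. In the other 5 clusters 0 members passed 1.5-fold for pyruvate, where 2.56% of all genes did at 5 mM and 6.51% at 15 mM glucose. The medians of these clusters at 15 mM glucose ran from −0.054 to 0.065 log2. Members in clusters had a median of 0.028 log2 and those outside one of 0.00023 log2 in that comparison.

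Other zinc finger families are given for comparison, with no test of a difference from them. The 135 Zfp genes with other numbers had medians of 0.045 and 0.079 log2 on leaving out pyruvate at 5 and 15 mM glucose, the 36 Zbtb genes, whose BTB domain pairs proteins, 0.048 and −0.032 log2, and the 21 Zscan and Zkscan genes, which carry a SCAN domain, 0.055 and 0.160 log2. Past 1.5-fold at 15 mM glucose were 6 of the 135, 1 of the 36 and 1 of the 21, or 4.44, 2.78 and 4.76%, against 6.51% of all genes.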

How the data were processed

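Total RNA of IMS32 cells in 4 media was Cy3-labelled and put on 1 Agilent mouse array per medium. The deposited array files hold spot intensity values from Agilent Feature Extraction 11.5.1.1, named in the submitters' processing notes, already background-corrected (the processed signal), and the series table of the authors holds the same signals as a ratio to 1 divisor per array, which ran from 1718 to 1930. The authors' software for analysis was GeneSpring GX. Here each spot's processed signal was averaged over the spots of a probe after spots marked as outliers were left out (166 to 183 per array), taken to log2 and set against the array's 75th percentile (1597 to 1788 intensity units). No spot was saturated. A gene's value was the mean over those of its probes that exceeded background clearly on all 4 arrays, by the gene name of the array design. RefSeq names of GRCm38.p6 were matched for 176 of 176 members. The number of arrays, not depth, limits the precision. The labels do not say whether a group was 1 culture or several.

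Differences between 2 arrays were described by their size, with 1.5-fold and 2-fold as thresholds. limma 3.58.1 in R 4.3.3 gave the additive fit with Benjamini-Hochberg adjustment at 0.05. Simulated data over 21708 genes took their noise, by band of signal, from the pyruvate difference at 5 mM glucose alone. On these the fit called 180 of 200 genes changed 4-fold alike at both glucose concentrations, and 0 unchanged ones. Over all genes that difference had an SD of 0.222 log2, against 0.323 log2 at 15 mM glucose. Smaller changes and changes that depend on glucose were not simulated, so whether the fit would call them was not tested. The 10 bands of signal held equal numbers of all genes, by mean log2 signal. The members, the gene lists and the rule for genes named in the text (past 1.5-fold, the 5 highest and lowest by the mean and by the difference of both pyruvate differences, and the lists) were chosen with earlier results of these data known. Other settings changed the scaling, the background correction, the probe filter and the probe used. Exon and UTR annotation in mm9 was not used here, and KRAB domains and finger counts of the proteins were not analysed.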

Additional observations from a re-analysis of the deposited data

Results flagged for a closer look

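In 7 of the members named above, the pyruvate difference ran one way at 5 mM glucose and the other way at 15 mM glucose, each by more than the spot error of a difference, 0.106 log2. Each group was 1 array, so the change of direction was not tested. Opposite directions past that error were seen in 15 of 176 members, or 8.52%, and in 13.9% of all genes. The error is 1 SD from repeated probes well above background and was not set by signal. In band 3, which held Zfp449, Zfp516 and Zfp618, other genes had an SD of 0.281 log2 for pyruvate at 5 mM glucose. In band 10 it was 0.082 log2.

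The difference at 15 mM minus that at 5 mM glucose was −0.56 log2 for Zfp143 (0.155 and −0.41 log2 at 5 and 15 mM), −0.40 log2 for Zfp148 (0.18 and −0.22 log2) and −0.51 log2 for Zfp516 (0.142 and −0.37 log2). It was −0.60 log2 for Zfp248 (0.44 and −0.156 log2) and −0.62 log2 for Zfp697 (0.166 and −0.45 log2). It was 0.57 log2 for Zfp449 (−0.41 and 0.154 log2) and 0.88 log2 for Zfp618 (−0.72 and 0.164 log2). Groups of 1 array allow no check of a single array against its group.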

How the results depend on the processing

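Each value was recomputed under up to 10 settings, and under 2 that were added after the data had been seen, without genes of 1 probe and without the 3 dimmest bands. Of 206 medians and counts, 167 stayed within the spot error or, for counts, within 1.5 times. The medians of long minus short members did so under all 12, at −0.243 to −0.203 log2 for pyruvate at 15 mM glucose.

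Scaling by 8 spike-in probes moved the median of all genes by −0.188 log2 for pyruvate at 5 mM glucose, −0.036 at 15 mM, −0.351 for glucose with pyruvate and −0.198 without. The members' medians then read −0.172 for pyruvate at 5 mM and −0.361 and −0.226 log2 for glucose with and without pyruvate. Members past 1.5-fold for glucose numbered 11 with and 14 without pyruvate. The additive fit called 2 members for pyruvate and 5 for glucose, 1.14 and 2.84% of them, against 1.61 and 6.11% of all genes. Of all genes 15.4 and 10.2% then passed 1.5-fold for glucose with and without pyruvate, against 6.25 and 7.95% of members. The cause was not tested. With quantile or cyclic loess normalization 2 members, or 1.14%, passed 1.5-fold for glucose with pyruvate, against 2.54 and 2.53% of all genes.

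With normexp background correction the members past 1.5-fold numbered 0 for pyruvate at 5 mM, 1 at 15 mM, 0 for glucose with and 0 without pyruvate. Of all genes 0.295, 2.17, 0.387 and 2.31% then passed it, in the same order. Zfp420 then no longer passed 2-fold for pyruvate at 15 mM. With the filter on dim probes met on any 1 array, 180 members were measured, and those past 1.5-fold numbered 6, 8, 4 and 6. This filter also takes probes well above background on only some arrays, so a difference between arrays can follow from the filter itself. The shares past 1.5-fold were then 3.33, 4.44, 2.22 and 3.33% of members against 7.23, 12.6, 7.95 and 12.9% of all genes. With no such filter, 9.24, 13.5, 9.55 and 14.3% of all genes passed 1.5-fold, and the members past it numbered 6, 8, 6 and 6. Without genes of 1 probe they were 1, 1, 0 and 1, or 1.43, 1.43, 0 and 1.43% of members. Of all genes left, 0.918, 2.48, 0.710 and 2.57% passed 1.5-fold. Without the 3 dimmest bands 3 passed for pyruvate at 15 mM, 0 for glucose with and 1 without pyruvate. The members' shares past 1.5-fold in the 4 comparisons were then 1.37, 2.05, 0 and 0.685%. Those of all genes were 0.276, 3.34, 0.369 and 3.63%. With the brightest probe of each gene Zfp420 no longer passed 2-fold for pyruvate at 15 mM, and Zfp143 turned from −0.66 to 0.079 log2 for glucose without pyruvate. It was the 1 difference past 1.5-fold that turned. Of 2232 values of single genes, 8 turned with more than the spot error on both sides, 5 of them with spike-in scaling and 2 with the brightest probe, among these Zfp143 for pyruvate at 15 mM, from −0.41 to 0.28 log2. Medians by KRAB motif were not run, since no protein sequences were used. No paired analysis was possible because each group is 1 array.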
